A study of Bos taurus with 10 samples.

Results

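Of the 21130 rows of the deposited expression table, 45 were genes of the constitutive proteasome, its assembly factors and its close regulators. They were chosen by symbol alone: Psma, Psmb, Psmc or Psmd with a number, Psmg with a digit, and Psme3, Psme4, Psmf1, Pomp and Nfe2l1. The 3 inducible catalytic subunits Psmb8, Psmb9 and Psmb10 were left out of the set. By role, 8 genes encode the alpha ring and 8 the beta ring of the core, 9 the base and 8 the lid of the regulatory cap, and 8 assembly factors. Another 3 encode alternative caps or an inhibitor, and 1 is the transcription factor gene Nfe2l1.

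The table gives 1 value per gene and library in FPKM, fragments scaled to transcript length and to the size of the library. The labels put 7 libraries in a group of heterozygous cattle (MSTN+/-), MSTN being the gene that encodes myostatin, an inhibitor of muscle growth, and 3 in a wild-type group. All 10 are labelled as muscle at an age of 24 months, and no treatment, batch or second allele is named for either group. The labels do not say how the MSTN allele was made or whether each library came from its own animal. The p-values therefore set a group difference only against the spread of these libraries. Part of that spread may be technical. Replicate numbers follow the order of the sample records and pair nothing, and the wild-type libraries are called WT1, WT2 and WT3.

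Neither the species nor the tissue of the labels fits what the table holds. The descriptions named Mus musculus in 43 of the 45 proteasome rows and in 19415 rows of the table, and 0 gene identifiers occurred in a RefSeq gene table of cattle. Ckm, for creatine kinase of muscle, reached at most 1.07 FPKM and Ttn, for titin, at most 0.40 FPKM, and 12 skeletal muscle markers summed to 17.3 to 38.7 FPKM per library. Of the 7 muscle markers tested, 2 were higher (31.8% of all genes tested) and 1 lower (12.8%) in MSTN+/-. Not all 12 were near 0. Myh2 spanned 5.73 to 15.3 FPKM over MSTN+/-, against 0.14 in the first wild-type library, 0.02 in WT2 and 0 in WT3. In WT1, Acta1 was at 24.4 FPKM and Des at 12.0 FPKM. Groups are therefore named by their labels, and no difference is assigned to MSTN or to cattle. FPKM totals ran from 402716 to 464418, and steps in low values put relative depth at 1 to 1.20 times that of MSTN+/- replicate 1 in a search limited to near-equal depths.

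Within the wild-type group, WT1 also stood apart from WT2 and WT3. The 12 pluripotency markers summed to 934 to 1608 FPKM over MSTN+/-, 2.32 in WT1, 3044 in WT2 and 3420 in WT3. Pou5f1 and Sox2 made up most of the MSTN+/- sums: Pou5f1 was at 633 to 848 FPKM over MSTN+/-, 0.38 in WT1, 346 in WT2 and 533 in WT3. The other 10 markers summed to 39.9 to 487 FPKM over MSTN+/-, 1.42 in WT1, 2475 in WT2 and 2685 in WT3. The 12 fibroblast markers summed to 3212 to 6225 FPKM over MSTN+/-, 6614 in WT1, 426 in WT2 and 310 in WT3. The 8 proliferation markers summed to 170 to 408 FPKM over MSTN+/-, 351 in WT1, 1006 in WT2 and 1098 in WT3. No marker of these lists was at 0 in all libraries, and Zfp42, Utf1 and Tdh were listed at 0 in WT1. In limma, of those tested, 0 of 12 pluripotency markers were called in either direction. In MSTN+/-, 7 of 12 fibroblast markers were higher (31.8% of all genes) and 6 of 8 proliferation markers were lower (12.8%). The 8 leukocyte, thymus and testis markers summed to 5.06 to 17.8 FPKM over MSTN+/-, 5.73 in WT1, 22.9 in WT2 and 26.2 in WT3, and 1 of the 3 tested was lower. The part of these cell markers in the differences described here was not tested. In bulk RNA, fewer cells of a type and less RNA per cell cannot be told apart.

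The proteasome is the large protease that degrades proteins tagged with ubiquitin. Its barrel-shaped core has outer alpha rings that gate the entrance and inner beta rings that carry the catalytic sites. The regulatory cap binds ubiquitin, removes it and unfolds the substrate: the base holds a ring of ATPases that pull the chain in, and the lid holds the deubiquitinase. Dedicated chaperones build both parts, and alternative caps can take the place of the regulatory cap. Nfe2l1 encodes NRF1, the transcription factor that raises proteasome genes together when proteasome activity is short. Interferon replaces the catalytic beta subunits by inducible ones in newly built cores, which alters the peptides made for antigen presentation.

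In the libraries labelled MSTN+/-, 15 of 44 proteasome genes were lower than in wild type and 1 was higher, and the 3 wild-type libraries did not share one pattern. Of 45 members, 44 passed the filter of 1 FPKM in at least 3 libraries. In limma on log2(FPKM + 1), 15 of the 44 fell, 1 rose and 28 did not pass the threshold at an adjusted p under 0.05. Of all 14047 genes tested, 12.8% were called lower and 31.8% higher. The median log2 change of the 44 members was -0.34, beside 0.17 over all genes tested, and 37 of the 44 changes were negative. All 3 wild-type values lay above all 7 MSTN+/- values for 6 members, Psmc3, Psmd1, Psmd2, Psmd11, Psmd14 and Psmd5, where 6.86% of all genes tested did so. For no member did all 3 lie below (25.2% of all genes tested).

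The wild-type libraries differed when taken apart. WT2 and WT3 were both above all 7 MSTN+/- libraries for 36 of the 45 members, beside 31.7% of all genes tested, and both below them for 1, Nfe2l1 (42.0%). They were a median 1.46 times the MSTN+/- mean. WT1 lay within the MSTN+/- range for 27 members, below it for 11 and above it for 7, at a median of 0.938 times the MSTN+/- mean. Over all genes tested, that library was within the range for 30.2%, below it for 50.0% and above it for 19.8%. Against WT2 and WT3, limma called 35 members lower (31.9% of all genes) and 2 higher (42.2%). Against WT1 alone, in a fit that assumes this library varies like the 7, it called 1 lower (10.8%) and 8 higher (33.7%). The same 7 libraries enter both fits. Without WT2 or without WT3, 5 members were called lower in each case (Psmc3, Psmd1, Psmd2, Psmd11 and Psmd5), beside 5.71% and 5.7% of all genes. Scaling also moved the count: median-of-ratios scaling called 27 lower (18.5% of all genes) and 1 higher (27.2%), TPM rescaling 24 lower (16.6%) and 1 higher (28.6%), quantile normalization 16 lower (27.4%) and 1 higher (20.5%), and library weights 35 lower (32.2%) and 2 higher (42.9%).

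**Figure D1:**
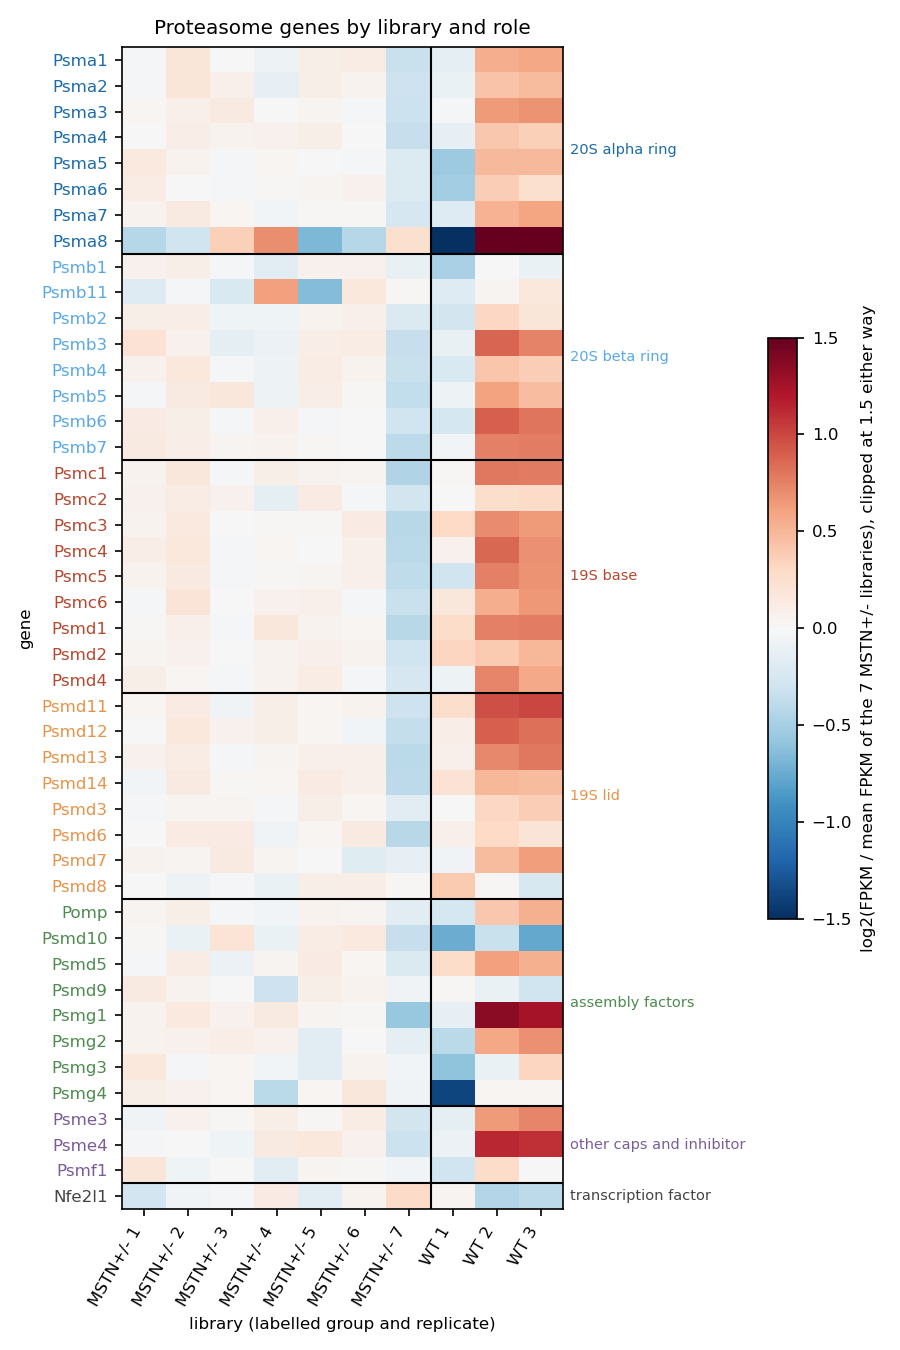
Each cell is the log2 ratio of a gene's FPKM in 1 library to its mean over the 7 MSTN+/- libraries, with genes in rows grouped by role and libraries in columns, and colours clipped at 1.5 either way. Most rows are red in WT2 and WT3, near white in the first 6 MSTN+/- libraries and pale blue in MSTN+/- replicate 7, while WT1 is mixed.

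In the core, levels were high and few changes passed the test over all 10 libraries. Across the 16 core genes 2 fell, none rose, 13 did not pass and Psmb11 was not tested, with a median log2 change of -0.31. Over all genes tested, 12.8% were called lower, a share near that of the core, and 31.8% higher. The core count depended on WT1 and on scaling. Without WT1, 14 of the 15 core genes tested fell, and 15 of the 17 genes of the regulatory cap (31.9% of all genes). The core median was then -0.54, and it was 0.19 against WT1 alone. Median-of-ratios scaling called 5 alpha and 4 beta ring genes lower (18.5% of all genes). Setting aside Psma8 and Psmb11, which are restricted to few tissues, mean levels per transcript length in the MSTN+/- libraries ran from 49.6 FPKM for Psma3 to 152.0 FPKM for Psmb1, although each core holds these subunits in equal number. WT1 was below the MSTN+/- range for 5 of the 16, Psma5, Psma6, Psma8, Psmb1 and Psmb2, within it for 11 and above it for none.

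Psma3, an alpha subunit, spanned 39.7 to 54.4 FPKM over MSTN+/- (median 50.7) against 49.2 in WT1, 77.2 in WT2 and 78.9 in WT3. WT2 and WT3 were high and WT1 sat inside the MSTN+/- range. In limma this gave -0.43 ± 0.16 (log2 change ± SE, adjusted p = 0.0454). Psma1, another alpha subunit, spanned 69.3 to 98.4 FPKM over MSTN+/- (median 87.0) against 79.0 in WT1, 127 in WT2 and 129.8 in WT3 and did not pass (log2 change -0.33, limma adjusted p = 0.127). Psma6 spanned 96.3 to 120.02 FPKM over MSTN+/- (median 112.5) against 77.8 in WT1, 144 in WT2 and 131 in WT3, so WT1 was the lowest of all 10 libraries. Its log2 change was -0.03 (limma adjusted p = 0.887). Psma2, Psma4, Psma5 and Psma7 had log2 changes of -0.31 to -0.14, none past the threshold, and each was highest in WT2 and WT3.

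Psmb7, the subunit with trypsin-like activity, spanned 77.0 to 111 FPKM over MSTN+/- (median 104) against 98.8 in WT1, 171 in WT2 and 173 in WT3. WT1 again lay inside the MSTN+/- range. Its limma estimate was -0.50 ± 0.18 (log2 change ± SE, adjusted p = 0.0466). The calls of Psma3 and Psmb7 were lost without any 1 MSTN+/- library (0.0568 to 0.0725 and 0.0588 to 0.0730), without WT2 (0.188 and 0.199) and without WT3 (0.198 and 0.203). Psma3 had a log2 change of -0.65 and Psmb7 of -0.76 without WT1, and 0.01 and 0.03 against that library alone.

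Psmb6, the caspase-like subunit, spanned 84.2 to 113 FPKM over MSTN+/- (median 104) against 86.3 in WT1, 193 in WT2 and 180.5 in WT3. Psmb5, the chymotrypsin-like subunit and main target of proteasome inhibitor drugs, spanned 77.0 to 112 FPKM over MSTN+/- (median 100.5) against 94.8 in WT1, 151 in WT2 and 137 in WT3. Psmb3, a noncatalytic beta subunit, spanned 108 to 160.2 FPKM over MSTN+/- (median 143) against 128 in WT1, 251 in WT2 and 229 in WT3, the highest levels of any member. None of the 3 passed the threshold over all libraries, the log2 changes being -0.48, -0.34 and -0.51 (adjusted p by limma, in that order, 0.101, 0.109 and 0.0638).

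Psmb1 stood apart within the beta ring. It spanned 135 to 161 FPKM over MSTN+/- (median 159) against 108 in WT1, 152 in WT2 and 142 in WT3. WT2 and WT3 were inside the MSTN+/- range and WT1 was below it. Its log2 change was 0.19 over all libraries (limma adjusted p = 0.206), and 0.48 against WT1 alone (0.00845). Psmb2 and Psmb4 had log2 changes of -0.08 and -0.19, neither past the threshold.

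Of the tissue-restricted core genes, Psmb11 was near 0 throughout and Psma8 was low except in WT2 and WT3. Psma8, the alpha subunit of male germ cells, spanned 0.72 to 1.86 FPKM over MSTN+/- (median 0.93) against 0.16 in WT1, 8.27 in WT2 and 10.8 in WT3. Its log2 change was -1.25 and did not pass over all libraries (limma adjusted p = 0.107), and was -2.30 without WT1 and 0.87 against that library alone, past the threshold in both (5.3e-06 and 0.0446). Of germ cell genes, Ddx4 had 0.18 to 1.52 FPKM over MSTN+/- and Sycp3 0.27 to 2.99 FPKM. In WT1, WT2 and WT3, Ddx4 had 0.13, 5.22 and 10.4 FPKM and Sycp3 had 0.41, 8.10 and 6.88 FPKM. Psmb11, the beta subunit of the thymus cortex, spanned 0.51 to 1.22 FPKM over MSTN+/- (median 0.78) against 0.70 in WT1, 0.82 in WT2 and 0.89 in WT3, and is the member that failed the filter. The thymus factor gene Foxn1 reached at most 0.12 FPKM.

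In the base of the regulatory cap, 6 of 9 genes fell (12.8% of all genes) and 3 did not pass. The median log2 change was -0.45. WT1 was above the MSTN+/- range for 3, within it for 6 and below it for none. Psmd1, a scaffold subunit of the base, spanned 44.0 to 66.4 FPKM over MSTN+/- (median 60.1) against 71.0 in WT1 and 100.3 in WT3, with WT2 just under WT3. The groups did not overlap, and WT1 lay nearest the MSTN+/- libraries. The fitted difference, as log2 change ± SE, was -0.60 ± 0.15 (limma adjusted p = 0.00877). Psmc3, an ATPase, spanned 62.3 to 91.7 FPKM over MSTN+/- (median 84.2) against 102 in WT1, 136 in WT2 and 129 in WT3 (log2 change -0.55 ± 0.14 SE, limma adjusted p = 0.00904). Psmd2, the other scaffold subunit, spanned 84.9 to 110.1 FPKM over MSTN+/- (median 109) against 131 in WT1, 137 in WT2 and 148 in WT3 (log2 change -0.41 ± 0.10 SE, limma adjusted p = 0.00999).

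Psmd1, Psmc3 and Psmd2 kept their calls without any 1 of the 10 libraries. Against WT1 alone none of them passed, the log2 changes being -0.28, -0.31 and -0.33 (adjusted p by limma, in that order, 0.235, 0.190 and 0.0814). Psmc1, Psmc4 and Psmc6, also ATPases, changed by -0.54, -0.54 and -0.45 on the log2 scale (adjusted p by limma, in that order, 0.0377, 0.0293 and 0.0193). Their calls were lost without WT2 (0.169, 0.150 and 0.0786) and without WT3 (0.165, 0.117 and 0.0953). That of Psmc1 was also lost on leaving out MSTN+/- replicate 1, 3, 5, 6 or 7 (0.0517 to 0.0609). Psmc2, the base gene with the smallest difference, spanned 59.4 to 78.1 FPKM over MSTN+/- (median 75.1) against 71.3 in WT1, 85.7 in WT2 and 87.3 in WT3, a log2 change of -0.18 that did not pass. Psmc5 and the ubiquitin receptor gene Psmd4 had estimates of -0.38 and -0.41 (log2) and did not pass (adjusted p by limma, in that order, 0.161 and 0.0610).

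In the lid, 4 of 8 genes fell (12.8% of all genes) and 4 did not pass, with a median log2 change of -0.37. Psmd11, a lid scaffold subunit, spanned 43.0 to 58.3 FPKM over MSTN+/- (median 54.7) against 64.3 in WT1, 104 in WT2 and 107 in WT3. The groups did not overlap, and WT2 and WT3 were 1.98 times the MSTN+/- mean while WT1 was 1.20 times. The log2 change ± SE was -0.74 ± 0.16 (limma adjusted p = 0.00493). That call was kept without any 1 library but not against WT1 alone (log2 change -0.27, 0.170). Psmd12 spanned 39.8 to 56.8 FPKM over MSTN+/- (median 52.3) against 54.9 in WT1, 95.2 in WT2 and 90.9 in WT3 (log2 change -0.61, limma adjusted p = 0.0172). Psmd13 spanned 39.4 to 56.0 FPKM over MSTN+/- (median 54.3) against 54.9 in WT1, 85.5 in WT2 and 89.96 in WT3 (log2 change -0.53, limma adjusted p = 0.0255). In both, WT1 fell inside the MSTN+/- range.

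Psmd14, the deubiquitinase of the lid, averaged 48.0 ± 5.49 FPKM in MSTN+/- (SD, n = 7) against 63.5 ± 6.55 FPKM for wild type (SD, n = 3), without overlap. In limma this gave -0.40 ± 0.13 (log2 change ± SE, adjusted p = 0.0268). The calls of Psmd12, Psmd13 and Psmd14 were lost without WT2 (0.0925, 0.115 and 0.106) and without WT3 (0.0851, 0.126 and 0.0977). Against WT1 alone their log2 changes were -0.11, -0.09 and -0.23, none past the threshold. Psmd3, Psmd6 and Psmd7 had estimates of -0.23, -0.20 and -0.35 (log2) and did not pass (adjusted p by limma, in that order, 0.0924, 0.225 and 0.0684).

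Psmd8 followed another pattern. This lid gene, the second most abundant member in the MSTN+/- libraries, spanned 138 to 159 FPKM over MSTN+/- (median 149) against 195 in WT1, 151 in WT2 and 126 in WT3. WT1 was the highest of all 10 libraries, WT2 was inside the MSTN+/- range and WT3 was the lowest. Its log2 change was -0.06 over all libraries (limma adjusted p = 0.718), and was positive, and not past the threshold, with quantile normalization (0.07), library weights (0.03), without WT1 (0.11) and when scaled to the core median (0.22). Against WT1 alone it was -0.39, the only member called lower in that fit (limma adjusted p = 0.0120).

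**Figure D2:**
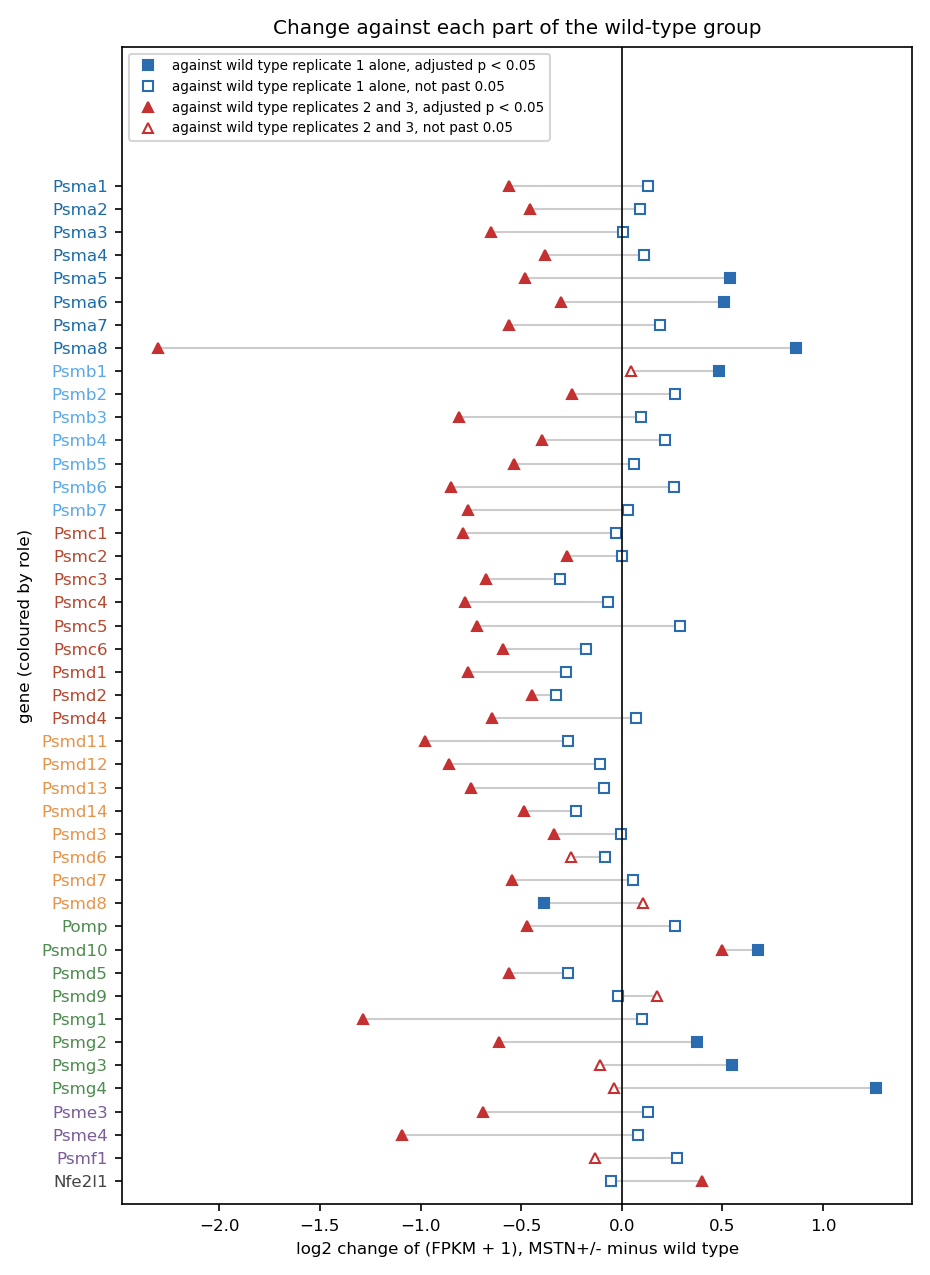
Points give the log2 change of FPKM + 1, MSTN+/- minus wild type, for the 44 members tested, against WT1 alone (blue squares) and against WT2 and WT3 (red triangles), filled where the limma adjusted p was under 0.05. Most red points lie left of 0, where 35 are filled. Right of 0 lie the filled red points of Psmd10 and Nfe2l1 and the open ones of Psmd9, Psmd8 and Psmb1. The blue points lie on both sides of 0, from -0.39 for Psmd8 to 1.26 for Psmg4.

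Lid and base levels were also set against the core within each library, a comparison that does not depend on library scaling. Over the whole cap the groups overlapped: the median of its 17 genes was 77.3 to 88.0% of the core median over MSTN+/- (median 80.4%), 81.2% in WT1, 78.8% in WT2 and 88.7% in WT3. Taken apart, the lid and base medians did not overlap between the groups. The median of the 8 lid genes was 49.3 to 55.1% of the median of the 16 core genes in the MSTN+/- libraries (median 52.4%), and 66.4, 66.2 and 71.1% in WT1, WT2 and WT3. For the 9 base genes it was 81.2 to 89.6% (median 83.7%) in the MSTN+/- libraries and 98.6, 91.1 and 99.9% in the wild-type libraries. All 3 wild-type libraries were above all 7 MSTN+/- libraries in both, a separation that rests on splitting the cap into lid and base. For the lid it also rests on the use of medians. By summed FPKM, the lid had 834 beside 2144 for the core in WT2 and 828 beside 2073 in WT3. It had 612 beside 1572 in MSTN+/- replicate 1 and 532 beside 1229 in MSTN+/- replicate 7, so the groups overlapped. By sums the base stayed apart. For the 8 assembly genes the median was 18.2 to 21.9% of the core median (median 19.9%) against 15.8, 17.5 and 19.8%, with overlap. These medians rest on few genes and were given no test.

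Gene by gene, with each value divided by the core median of its library, all 3 wild-type libraries exceeded all 7 MSTN+/- libraries for 8 of the 17 cap genes, where 5.51% of all genes tested did so (26.6% lay below). The 8 were Psmc1, Psmc3, Psmc4, Psmd1 and Psmd4 in the base and Psmd11, Psmd12 and Psmd13 in the lid. None of the 17 lay below in all 3. Psmd11 was at 48.2 to 54.7% of the core median in the MSTN+/- libraries (median 53.1%) and at 71.0, 69.3 and 76.9% in WT1, WT2 and WT3. Psmd1 was at 54.0 to 63.8% (median 56.5%) and at 78.5, 65.7 and 72.0%. A limma fit on values scaled to the core median, chosen after the data were seen, called 4 base and 3 lid genes lower, 7.97% of all genes being called lower. That fit called 9 members lower and 3 higher in all (36.2% of all genes higher), and core genes enter their own scale.

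Not every cap gene had this order. Psmd6, Psmd14 and Psmc2 were at 42.7 and 43.1, 45.0 and 47.9, and 56.9 and 62.7% of the core median in WT2 and WT3, and at 60.9, 61.8 and 78.8% in WT1. The MSTN+/- libraries had 47.1 to 55.9, 42.1 to 50.1 and 63.0 to 74.6%. Psmd8 was at 128 to 186% in the MSTN+/- libraries, 215% in WT1, 100% in WT2 and 90.7% in WT3. Psmd3 was at 84.6 to 107% in the MSTN+/- libraries, 106% in WT1, 78.8% in WT2 and 88.7% in WT3. In the core, Psmb1 was at 130 to 175% of the core median in the MSTN+/- libraries and at 120, 101 and 102% in the wild-type libraries, and Psma6 at 101 to 120% and at 86.0, 95.6 and 94.1%, both below in all 3. Psma3 and Psmb7 lay above in all 3. The order of the 45 levels was otherwise similar. Spearman's rho between the MSTN+/- mean and WT1, WT2 and WT3 was 0.949, 0.910 and 0.909 across genes, which are not independent. It was 0.965 to 0.992 between pairs of MSTN+/- libraries and 0.9675 between WT2 and WT3.

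**Figure D3:**
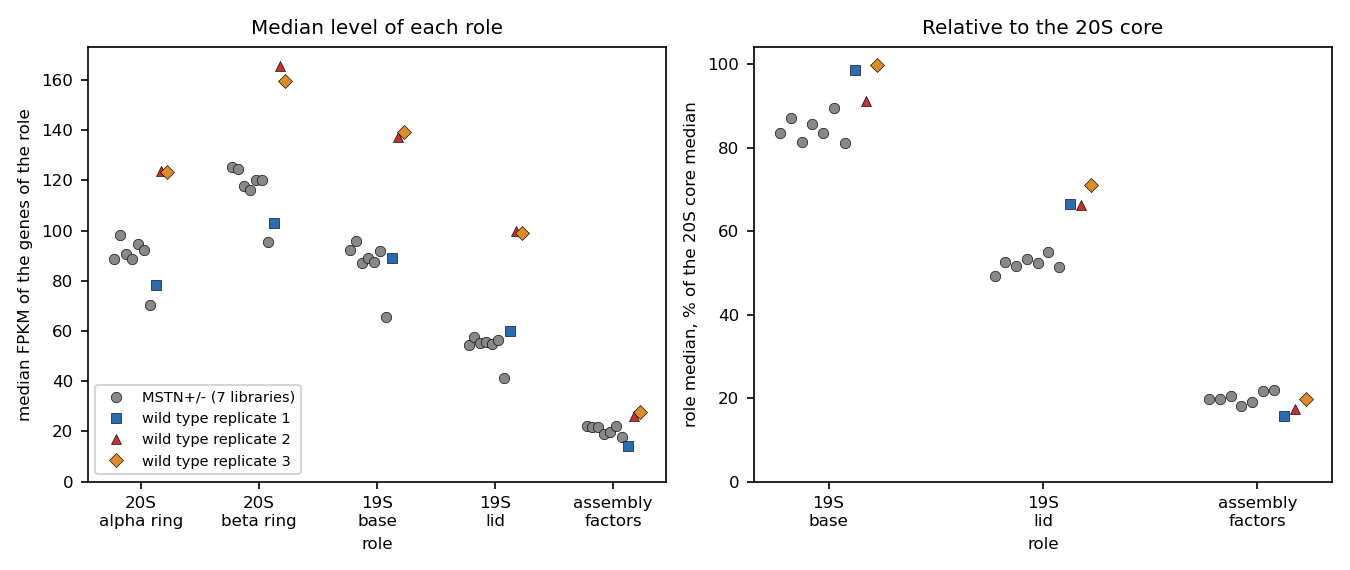
Left, the median FPKM of the genes of each role in each library; right, the same medians for base, lid and assembly genes as a percentage of the 20S core median of that library, with grey circles for the 7 MSTN+/- libraries and coloured symbols for the 3 wild-type libraries. For the lid, the 3 wild-type libraries at 66.2 to 71.1% sit above the MSTN+/- libraries at 49.3 to 55.1%, while the assembly factors overlap.

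Assembly factors went in different directions. Of 8, 2 fell (12.8% of all genes), 1 rose (31.8%) and 5 did not pass, with a median log2 change of -0.06. Psmg1, which with Psmg2 starts the alpha ring, spanned 15.8 to 26.0 FPKM over MSTN+/- (median 24.4) against 21.6 in WT1, 60.2 in WT2 and 56.0 in WT3. WT2 and WT3 were 2.47 times the MSTN+/- mean, the largest such ratio of any member but Psma8, and WT1 was inside the MSTN+/- range. Its limma estimate was -0.82 ± 0.29 (log2 change ± SE, adjusted p = 0.0387). That call was lost without any 1 MSTN+/- library (0.0513 to 0.0629), without WT2 (0.189) and without WT3 (0.174), with log2 changes of -1.28 without WT1 and 0.10 against it alone.

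Its partner gene Psmg2 spanned 18.9 to 22.8 FPKM over MSTN+/- (median 22.2) against 16.2 in WT1, 31.8 in WT2 and 34.3 in WT3, a log2 change of -0.28 that did not pass. The genes of the other chaperone pair, Psmg3 and Psmg4, did not follow, and these 3 genes are described here after their values were seen. Psmg3 spanned 12.4 to 15.4 FPKM over MSTN+/- (median 13.5) against 9.12 in WT1, 12.9 in WT2 and 17.3 in WT3, and Psmg4 15.5 to 22.9 FPKM (median 20.9) against 7.85 in WT1, 20.8 in WT2 and 20.9 in WT3. In both, WT1 was the lowest of all libraries. Neither passed over all libraries, and against WT1 alone the log2 changes of Psmg2, Psmg3 and Psmg4 were 0.38, 0.55 and 1.26, all past the threshold (limma adjusted p of 0.0318, 0.00475 and 4.8e-04). Pomp, the chaperone of the beta ring, spanned 88.4 to 106 FPKM over MSTN+/- (median 102) against 82.7 in WT1, 132 in WT2 and 144 in WT3 and did not pass (log2 change -0.22, limma adjusted p = 0.255).

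The 3 chaperone genes of the base did not share one direction. Psmd5 spanned 22.4 to 28.3 FPKM over MSTN+/- (median 26.5) against 31.4 in WT1, 39.7 in WT2 and 37.6 in WT3, without overlap. The fitted difference, as log2 change ± SE, was -0.46 ± 0.11 (limma adjusted p = 0.00698), kept without any 1 library, and was -0.27 against WT1 alone (0.120). Psmd10, which encodes gankyrin, spanned 11.3 to 16.7 FPKM over MSTN+/- (median 14.6) against 8.60 in WT1, 11.4 in WT2 and 8.51 in WT3, and was the only member that rose. The log2 change ± SE was 0.56 ± 0.14 (limma adjusted p = 0.00924). The groups overlapped by 1 value on each side, WT2 and MSTN+/- replicate 7. The call was kept without any 1 library and against WT1 alone (log2 change 0.68, 0.0131), and was missed with quantile normalization (0.35, 0.0514). Psmd9 spanned 9.88 to 13.4 FPKM against 12.3 in WT1, 11.4 in WT2 and 9.96 in WT3 and did not pass (log2 change 0.11).

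Psme4, which encodes the PA200 cap, fell, while Psme3, which encodes the nuclear PA28 gamma cap, and the inhibitor gene Psmf1 did not pass. Psme4 spanned 24.9 to 34.6 FPKM over MSTN+/- (median 31.2) against 29.2 in WT1, 67.9 in WT2 and 66.2 in WT3. WT2 and WT3 were 2.16 times the MSTN+/- mean, and WT1 lay inside the range. In limma this gave -0.70 ± 0.23 (log2 change ± SE, adjusted p = 0.0337). That call was lost on leaving out MSTN+/- replicate 1, 2, 3, 6 or 7 (0.0517 to 0.0588) and without WT2 or WT3 (0.166 and 0.161), with log2 changes of -1.09 without WT1, -1.06 with library weights and 0.08 against that library alone. Psme3 spanned 65.3 to 85.2 FPKM over MSTN+/- (median 79.7) against 71.7 in WT1, 123 in WT2 and 131 in WT3 (log2 change -0.41, limma adjusted p = 0.0771). Psmf1 spanned 11.9 to 15.1 FPKM over MSTN+/- (median 13.2) against 10.8 in WT1, 16.1 in WT2 and 13.3 in WT3 (log2 change 0.00, limma adjusted p = 0.978).

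Nfe2l1, the gene of the transcription factor NRF1, was ordered opposite to most subunit genes. It spanned 58.7 to 87.3 FPKM over MSTN+/- (median 70.1) against 73.9 in WT1, 53.0 in WT2 and 54.4 in WT3. WT2 and WT3, where most subunit genes were highest, were the lowest of the 10, and MSTN+/- replicate 7, where most subunit genes were lowest, was the highest. Its log2 change was 0.25 and did not pass (limma adjusted p = 0.182). Without WT1 it was 0.40, past the threshold (0.0159), and against that library alone -0.06. NRF1 is controlled largely at the protein level, which these data do not measure.

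**Figure D4:**
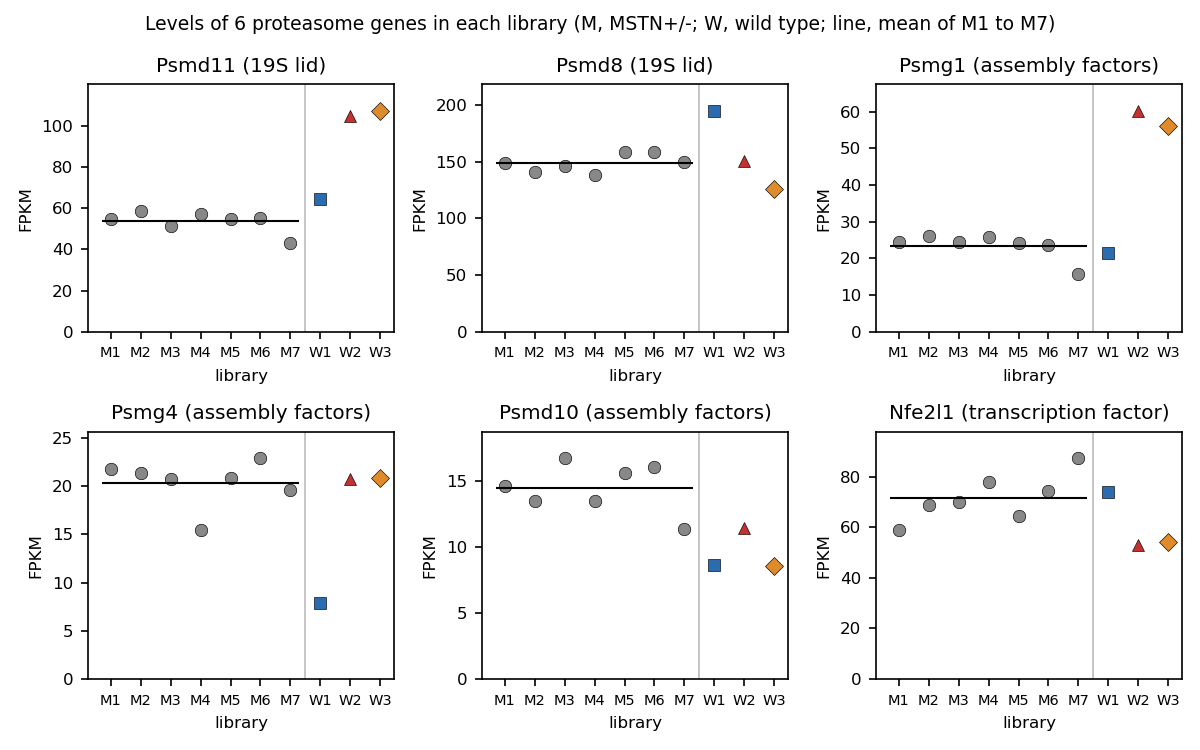
FPKM of 6 members in each library, with M1 to M7 for MSTN+/- and W1 to W3 for WT1 to WT3, axes starting at 0 and the line at the mean of the 7 MSTN+/- libraries. Psmd11 and Psmg1 are high in W2 and W3, Psmd8 is highest in W1, Psmg4 is lowest in W1, Psmd10 is low in all 3 and Nfe2l1 is low in W2 and W3.

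Of 18 genes that process NRF1 or act beside it, 5 were higher (31.8% of all genes), 4 lower (12.8%) and 9 did not pass. The median log2 change was 0.25. The largest change was in Nfe2l3, the gene of the related factor NRF3, at 6.80 to 14.4 FPKM (median 7.39) in the MSTN+/- libraries against 0.36 in WT1, 0.94 in WT2 and 1.13 in WT3. Its limma estimate was 2.44 ± 0.25 (log2 change ± SE, adjusted p = 5.1e-05). Keap1, an adaptor that holds the related factor NRF2 in check, spanned 24.4 to 28.9 FPKM over MSTN+/- (median 26.3) against 15.8 in WT1, 7.96 in WT2 and 9.84 in WT3 (log2 change 1.20, limma adjusted p = 3.4e-04, and 0.69 against WT1 alone, past the threshold). The repressor gene Bach1 spanned 6.05 to 7.57 FPKM over MSTN+/- (median 7.07) against 12.8 in WT1, 11.9 in WT2 and 12.1 in WT3 (log2 change -0.75, limma adjusted p = 2.3e-04). In all 3 genes, chosen for the smallest p of the list, the groups did not overlap. Over all genes tested, all 3 wild-type values lay below all 7 MSTN+/- values for 25.2% and above them for 6.86%.

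All 5 genes of the inducible list, Psmb8, Psmb9, Psmb10 and the interferon-induced cap genes Psme1 and Psme2, rose (31.8% of all genes). Their median log2 change was 1.23. Psmb8, the counterpart of Psmb5, spanned 33.4 to 50.3 FPKM over MSTN+/- (median 39.7) against 0.76 in WT1, 5.07 in WT2 and 1.48 in WT3. Psmb9, the counterpart of Psmb6, spanned 16.9 to 27.4 FPKM over MSTN+/- (median 25.6), listed at 0 in WT1 and at 1.92 and 1.78 FPKM in WT2 and WT3. Psmb10, the counterpart of Psmb7, spanned 20.5 to 37.4 FPKM over MSTN+/- (median 26.5) against 8.72 in WT1, 14.5 in WT2 and 10.4 in WT3. Psme2 has a near copy, Psme2b, with its own row, so its reads may have been split. Ptprc, a marker of all leukocytes, was at 0 to 0.04 FPKM in all 10 libraries. Cd68, of the same marker list, was at 3.72 to 13.1 FPKM over MSTN+/-, 4.64 in WT1, 8.98 in WT2 and 8.25 in WT3. The part of leukocytes in these differences was not tested.

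Within each library, the inducible subunit was set against the constitutive one it replaces. Psmb8 was 31.7 to 52.2% of Psmb5 (median 37.3%) in the MSTN+/- libraries and 0.802, 3.35 and 1.08% in WT1, WT2 and WT3. Psmb9 was 15.5 to 26.8% of Psmb6 (median 24.1%) and 0.995 and 0.986% in WT2 and WT3. Psmb10 was 23.1 to 33.6% of Psmb7 (median 26.6%) and 8.83, 8.51 and 6.02%. The log2 ratios, each value plus 1 FPKM, differed by 4.09, 4.08 and 1.73 between the groups' means. The exact two-sided permutation test over 120 splits gave p = 0.00833 for each pair (adjusted over the 3 pairs 0.00833), the smallest value that design allows. All 3 wild-type libraries were below all 7 MSTN+/- libraries in each ratio, and the difference was 3.89 to 4.47, 3.95 to 4.17 and 1.55 to 1.84 without any 1 library.

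**Figure D5:**
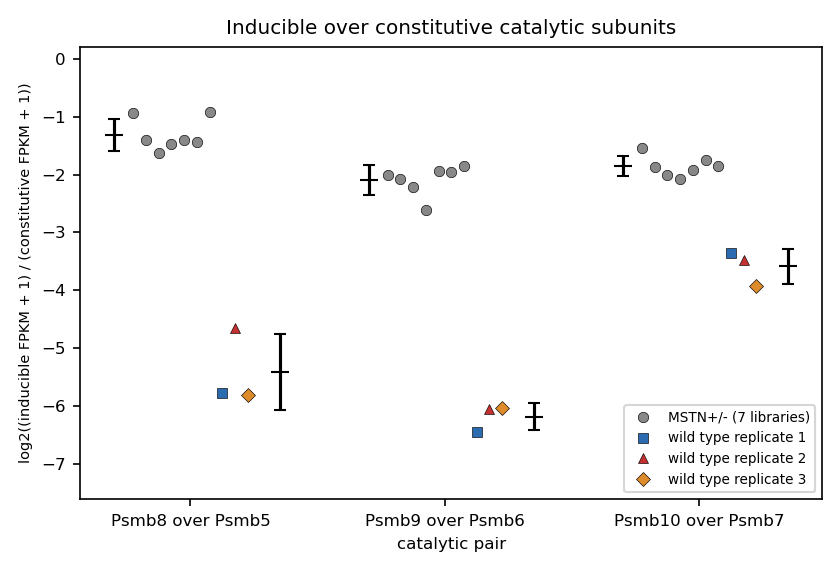
The log2 ratio of inducible to constitutive subunit, each FPKM value plus 1, for the 3 catalytic pairs in each library, with the group mean and SD as a bar (n = 7 and n = 3). In each pair the 3 wild-type libraries lie below all 7 MSTN+/- libraries.

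Other genes that work with the proteasome were split. Of 21 partner genes measured, 3 were higher (31.8% of all genes), 7 lower (12.8%) and 11 did not pass. The median log2 change was -0.24. Rad23b, a shuttle that brings ubiquitinated substrates, spanned 78.6 to 99.7 FPKM over MSTN+/- (median 92.3) against 126 in WT1, 166 in WT2 and 158 in WT3 (log2 change -0.70, limma adjusted p = 7.5e-04, and -0.46 against WT1 alone, past the threshold). Usp14, a deubiquitinase that docks on the base, spanned 20.8 to 27.4 FPKM over MSTN+/- (median 25.3) against 36.0 in WT1, 41.0 in WT2 and 45.7 in WT3 (log2 change -0.69, limma adjusted p = 8.4e-04). Ubqln1, another shuttle, spanned 40.6 to 51.8 FPKM over MSTN+/- (median 47.9) against 64.1 in WT1, 74.0 in WT2 and 83.9 in WT3 (log2 change -0.61, limma adjusted p = 0.00154). Against WT1 alone the log2 changes of Usp14 and Ubqln1 were -0.51 and -0.42. Rad23b, Usp14 and Ubqln1 had the smallest p of the list over all 10 libraries, and the same 7 MSTN+/- libraries enter both fits. Shfm1, the small lid subunit outside the symbol rule and named here after its values were seen, was higher, at 118 to 145 FPKM (median 126) against 100.4 in WT1, 77.9 in WT2 and 85.7 in WT3 (log2 change 0.53, limma adjusted p = 0.00294).

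Genes of a second complex of protein quality control were examined beside the proteasome. Of the 8 subunit genes of the chaperonin CCT, which folds actin and tubulin, 7 fell (12.8% of all genes) and 1 did not pass. Their median log2 change was -0.75, beside -0.34 for the proteasome members. Cct8 spanned 86.8 to 129 FPKM over MSTN+/- (median 121) against 139.7 in WT1, 249.7 in WT2 and 257 in WT3, Cct6a 101 to 159 FPKM (median 136) against 163 in WT1, 300.0 in WT2 and 330.5 in WT3, and Tcp1 121 to 153 FPKM (median 146) against 170.4 in WT1, 229 in WT2 and 257 in WT3. Against WT1 alone none of the 3 passed (log2 changes of -0.25, -0.25 and -0.26). The proteasome and CCT genes were not tested against each other.

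Among the 7 MSTN+/- libraries the members varied little, apart from replicate 7. The median coefficient of variation over the 7 was 10.2% for the 44 members tested and 13.2% for all genes tested. The members lay at higher levels, with a median of 65.3 to 85.2 FPKM per MSTN+/- library, beside 9.66 to 10.5 FPKM for all genes tested. The part of level in this difference was not tested. Replicate 7 had the lowest of the 7 values for 34 of the 45 members, where 28.8% of all genes tested had theirs there, and its median was 0.785 times the mean of the other 6, beside 0.955 over all genes tested. All 9 base genes were lowest in it, and 13 of the 16 core genes. The 8 proliferation markers summed to 170 FPKM in replicate 7 and to 322 FPKM or more in the other 6, and the part of proliferation in this difference was not tested. Without replicate 7, 10 members were called lower (10.1% of all genes) and the median log2 change was -0.30, beside 0.17 over all genes. A value of replicate 7 below the other 6 by more than the Dixon limit, a bound on the gap of 1 value relative to the range, was found for 16 of the 45 members and for 3.49% of all genes tested.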

How the data were processed

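The table holds FPKM values as deposited by the authors, 1 column per library, with gene identifiers, symbols and descriptions, per the file headers. How the authors aligned and counted reads for the FPKM values, and on which genome build, is not given in the sources used here. All 10 FPKM columns were matched to samples by title.

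The members and gene lists were chosen with earlier results of these data known. Genes with at least 1 FPKM in at least 3 libraries (14047) were tested as log2(FPKM + 1) by limma 3.58.1 with trend in R 4.3.3, MSTN+/- minus wild type, over all 10 libraries, with Benjamini-Hochberg adjustment over all genes and a threshold of 0.05. A fold change on this scale understates that of low genes. Ratios within a library were tested by exact two-sided permutation over 120 splits. Counts, medians and figures were made in Python 3.11.15 and matplotlib 3.10.9. On simulated data with 50 genes changed per size, this fit over 14047 genes recovered 48, 80, 96 and 98% at 2-, 4-, 8- and 16-fold, and 7.47% of 174 calls were false. The simulation changed few genes, none of them low, and drew noise separately for each gene. In the real libraries many genes differed together, also within the wild-type group, so these rates need not hold for them.

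Values in every library are given for the 3 members of each role with the smallest p and the one at the other end of the log2 changes, for Nfe2l1, Pomp, Psme3, Psme4 and Psmf1, for the genes of the ratios, for members failing the filter, and for the 3 called genes of each other list with the smallest p. Exceptions are said beside them. Alternatives were another scaling (median of ratios, TPM, quantile, core median), a pseudocount of 0.1, a filter at a mean of 5 FPKM or none at all, robust variance, library weights, each library left out and each side of the wild-type group alone. No sequence is shown, since no sequence table of these genes was used here.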

Additional observations from a re-analysis of the deposited data

Results flagged for a closer look

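Of 60 genes and ratios examined, 20 had 1 value among the 7 MSTN+/- libraries that lay apart from the other 6 by more than the Dixon limit for 7 values, and in all 20 it was the lowest value, that of MSTN+/- replicate 7. Chance marks about 1 group in 20, for groups that are independent; these values share 1 library and are 1 shared observation. Of the 45 members, 16 were among them, where 3.49% of all 14047 genes tested had such a value in that library. In FPKM, the values of that library were, for members, Psma3 39.7, Psma4 71.7, Psmb6 84.2, Psmb7 77.0, Psmc1 65.5, Psmc3 62.3, Psmc4 66.3, Psmc5 69.5, Psmd1 44.0, Psmd12 39.8, Psmd13 39.4, Psmd14 36.5, Psmd2 84.9, Psmd4 78.9, Psmd6 39.4 and Psmg1 15.8. For other genes they were Cct8 86.8, Rad23b 78.6, Tcp1 121 and Ubqln1 40.6. The library with the lowest proliferation marker sum was the same one, and its part in these values was not tested.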

How the results depend on the processing

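No paired analysis was possible because replicate numbers only follow the order of the sample records. Over the 20 alternatives, 879 member values were recomputed: 678 kept their direction and side of the threshold, 72 lost the call, 71 gained one and 58 changed sign. The count of members lower, 15, became 27 with median-of-ratios scaling, 24 with TPM rescaling, 35 with library weights, 1 against WT1 alone and 9 with core median scaling, an alternative chosen after seeing the data. The count higher, 1, became 2 with library weights, 8 against WT1 alone and 3 with core median scaling. Leaving out 1 library gave 5 to 35 lower and 1 to 2 higher: 35 without WT1, 5 without WT2, 5 without WT3 and 10 to 12 without an MSTN+/- library. The fit against WT2 and WT3 is the one without WT1. The 3 ratios kept direction and call, with p = 0.0119 or 0.0278 by the exact permutation test when 1 library was left out. Sign changes, as log2 changes: Against WT1 alone, Nfe2l1 -0.055, Pomp 0.26, Psma1 0.13, Psma2 0.090, Psma3 0.0068, Psma4 0.11, Psma5 0.54, Psma6 0.51, Psma7 0.19, Psma8 0.87, Psmb2 0.27, Psmb3 0.096, Psmb4 0.21, Psmb5 0.061, Psmb6 0.26, Psmb7 0.029, Psmc2 0.00060, Psmc5 0.29, Psmd4 0.071, Psmd7 0.054, Psmd9 -0.020, Psme3 0.13, Psme4 0.082, Psmg1 0.10 and Psmg2 0.38. With 20S core median scaling, Pomp 0.051, Psma2 0.0018, Psma4 0.057, Psma5 0.13, Psma6 0.24, Psmb2 0.20, Psmb4 0.083, Psmc2 0.091, Psmd3 0.049, Psmd6 0.076 and Psmd8 0.22. With quantile normalization, Psma6 0.052, Psmb2 0.0080, Psmd8 0.070, Psmd9 -0.093, Psmf1 -0.16 and Psmg3 -0.046. With library weights, Psmd8 0.032 and Psmf1 -0.19. With median-of-ratios scaling, Psmf1 -0.085. With TPM rescaling, Psmf1 -0.050. Leaving out 1 library changed a sign for 7 members, none called over all libraries, with ranges of Psma5 -0.48 to 0.029, Psma6 -0.30 to 0.14, Psmb2 -0.25 to 0.042, Psmd8 -0.21 to 0.11, Psmf1 -0.13 to 0.14, Psmg3 -0.11 to 0.32 and Psmg4 -0.038 to 0.61. The cause was not tested. The absolute read depth per library is unknown, so counting error could not be set beside these values, and 3 wild-type libraries limit every estimate.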
